A study of Homo sapiens with 12 samples.

Results

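The 88 genes described here encode the subunits of the oxidative phosphorylation complexes, together with a few of their assembly and partner factors, measured in liver cancer cells with and without an siRNA. They are the array rows whose single gene symbol in the platform annotation begins with NDUFA, NDUFB, NDUFC, NDUFS, NDUFV, SDHA, SDHB, SDHC, SDHD, UQCR, COX4I, COX5, COX6, COX7, COX8, CYC1 or ATP5. Of 98 rows with such a symbol, 7 pseudogene rows, 2 antisense rows and 1 second row of NDUFB2 were left out, which left 88 genes of 66212 rows tested. The genes divide into 74 subunits, with 32 in complex I, 3 in complex II, 8 in complex III, 14 in complex IV and 17 in complex V, and 14 assembly factors and other genes. Of the 88, 72 had a group mean above the highest of the background control rows (5.50 on the log2 scale) in at least 1 group, and 16 did not. A further 9 rows carry several symbols and were not used. UQCRHL and ATP5MGL are near-copies of UQCRH and ATP5MG, and SDHA has pseudogene copies, so the source of those 3 signals is uncertain.

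The arrays cover 4 groups of 3. They are Huh7 cells transfected with an siRNA, Huh7 cells transfected with negative control RNA, Hep3B cells transfected with the siRNA and Hep3B cells transfected with negative control RNA, and RNA was taken 48 h after transfection. Huh7 and Hep3B are established human hepatocellular carcinoma cell lines, so each group stands for a single line in culture. The series title concerns a long non-coding RNA in hepatocellular carcinoma. No row was matched to that RNA, and its level was not analysed here. Gene levels and changes are log2 intensities after quantile normalization, unless said otherwise. The background limit and the correlations between arrays were taken from the deposited log2 values. "Called" means an adjusted p under 0.05 in limma's moderated test, with Benjamini-Hochberg adjustment over all 66212 rows. Nothing in the labels tells if the arrays within a group stem from different cultures, so each p-value reflects array-to-array spread alone, which may be technical. For Huh7 control array 1 the description field says Hep3B and the other fields say Huh7. Over all rows it correlated at 0.9844 to 0.9933 with the other Huh7 arrays and at 0.9534 to 0.9596 with the Hep3B arrays. All 8 hepatocyte and liver cancer markers were above background in at least 1 group. So were 0 of 4 endothelial, 0 of 4 fibroblast, 2 of 4 blood and macrophage and 2 of 3 cholangiocyte markers. APOA1 passed only in Hep3B control arrays (5.52), and KRT19, a cholangiocyte marker, only in Huh7. In Huh7, APOA1 lay within background, at 3.97 in siRNA and 4.14 in control arrays. The summed log2 level of the 8 hepatocyte markers was 84.92 in Huh7 siRNA and 89.84 in Huh7 control arrays, and 84.1 in Hep3B siRNA and 87.05 in Hep3B control arrays. In each line 7 of the 8 were lower in siRNA arrays, the exceptions being APOA2 in Huh7 (10.66 in siRNA and 10.31 in control arrays) and FGB in Hep3B (9.8 in siRNA and 8.23 in control arrays). Of the blood and macrophage markers, CD68 stood at 8.72 in Huh7 siRNA and 7.59 in Huh7 control arrays, and at 9.47 in Hep3B siRNA and 8.98 in Hep3B control arrays. LYZ stood at 14.36 in Huh7 siRNA and 14.4 in Huh7 control arrays, and at 10.69 in Hep3B siRNA and 10.77 in Hep3B control arrays, while PTPRC and CD14 lay within background. The part of these shifts in the results below was not tested.

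Oxidative phosphorylation takes place in the inner mitochondrial membrane. Complex I (NADH dehydrogenase) and complex II (succinate dehydrogenase) pass electrons to ubiquinone, complex III (the cytochrome bc1 complex) passes them on to cytochrome c, and complex IV (cytochrome c oxidase) reduces oxygen. Complexes I, III and IV pump protons, and complex V (ATP synthase) uses the gradient to make ATP. Most subunits are encoded in the nucleus, and a few are encoded by mitochondrial DNA. The mitochondrially encoded subunits were not analysed here. Hepatocytes are rich in mitochondria, while liver cancer cells also draw on glycolysis. The promoters of the nuclear genes are known to hold sites for NRF1, for GABP and other ETS factors, and for YY1.

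Promoter windows of 300 bases, running from 250 before to 50 after the transcription start, were taken from RefSeq (GRCh38.p14) for the 72 of 88 genes that matched. They were searched on both strands for the letters GCGCA and GCGC with any 1 base between them (NRF1), CCGGAAG (ETS factors), AAGATGGC (YY1) and CACGTG (E-box), which do not overlap each other in the windows printed here. The NRF1 letters stood in 27.1% of the 59 matched subunit genes, against 14.6% of 6689 named genes above background and 6.98% of all 27305 genes in the table. The ETS letters stood in 28.8% of subunit genes, against 24.3% and 12.2% of these 2 sets, and the YY1 letters in 16.9%, against 7.59% and 3.52%. The E-box letters stood in 11.9% of subunit genes, against 13.0% and 8.77%. By complex, the NRF1 letters were present in 6 of 29 genes of complex I, 2 of 2 of complex II, 3 of 5 of complex III, 1 of 11 of complex IV and 4 of 12 of complex V. The ETS letters were present in 4 of 29, 1 of 2, 2 of 5, 5 of 11 and 5 of 12 genes of the same complexes. These matches describe the letters only. The first 3 windows below belong to genes that fell in both lines, from complexes I, IV and V, and the fourth belongs to a complex V gene that was higher in siRNA than in control arrays of Hep3B. They are printed 5′ to 3′ on the gene's strand with the searched letters in capitals, as NRF1 in NDUFA12 (chr12:95003648-95003947, minus strand), ETS on the opposite strand in COX8A (chr11:63974370-63974669, plus strand), ETS on the opposite strand in ATP5PD (chr17:75046920-75047219, minus strand), and the E-box and, on the opposite strand, YY1 in ATP5PB (chr1:111449214-111449513, plus strand).
NDUFA12: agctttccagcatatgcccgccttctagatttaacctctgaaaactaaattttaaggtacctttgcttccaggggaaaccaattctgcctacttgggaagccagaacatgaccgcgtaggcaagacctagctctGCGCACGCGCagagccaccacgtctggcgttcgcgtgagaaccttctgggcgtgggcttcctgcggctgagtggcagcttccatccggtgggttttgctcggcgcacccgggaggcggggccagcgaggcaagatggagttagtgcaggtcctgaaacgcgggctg
COX8A: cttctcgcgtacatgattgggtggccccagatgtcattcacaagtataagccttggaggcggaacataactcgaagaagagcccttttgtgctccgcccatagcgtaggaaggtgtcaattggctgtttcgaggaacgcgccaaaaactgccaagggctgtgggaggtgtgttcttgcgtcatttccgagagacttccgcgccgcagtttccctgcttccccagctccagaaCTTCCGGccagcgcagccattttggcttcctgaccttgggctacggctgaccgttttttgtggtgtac
ATP5PD: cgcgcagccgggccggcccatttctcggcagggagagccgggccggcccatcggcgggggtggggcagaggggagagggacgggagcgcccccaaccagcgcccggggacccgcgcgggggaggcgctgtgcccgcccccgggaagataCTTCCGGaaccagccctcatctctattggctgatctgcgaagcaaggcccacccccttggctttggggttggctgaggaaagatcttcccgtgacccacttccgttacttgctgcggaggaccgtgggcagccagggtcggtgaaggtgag
ATP5PB: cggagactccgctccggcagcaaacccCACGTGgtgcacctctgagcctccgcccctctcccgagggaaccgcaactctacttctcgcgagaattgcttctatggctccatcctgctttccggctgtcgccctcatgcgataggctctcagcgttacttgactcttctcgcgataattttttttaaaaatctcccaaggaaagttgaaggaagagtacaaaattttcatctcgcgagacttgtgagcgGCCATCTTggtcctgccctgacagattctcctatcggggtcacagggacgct
The windows of UQCRC2, another gene that fell in both lines, and of ATP5IF1 and NDUFV2, which were higher in siRNA than in control arrays of Hep3B, hold none of the 4 sets of letters.

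More subunit transcripts fell than rose in both lines. In Huh7, 27 of 74 subunits fell and none rose, with a median log2 change of -0.32. In Hep3B, 19 subunits fell and 2 rose, with a median of -0.21. The changes were modest, at or under 2.29-fold for every subunit in Huh7 and 2.07-fold in Hep3B, where COX8A, a small subunit of complex IV, changed most. Over all tested rows, 8.05% were called in Huh7 (3.49% lower, 4.56% higher) and 10.3% in Hep3B (4.66% lower, 5.63% higher), with medians of -0.01 in both lines. Among the 8766 named rows above background, to which most members belong, 16.4% were called lower and 15.3% higher in Huh7, with a median of -0.04, and 17.5% lower and 20.6% higher in Hep3B, with a median of 0.00. Members were chosen by symbol and 12 subunits lay within background, so these shares are set side by side with no test. By complex, the share of subunits that fell in Huh7 was 21.9% in complex I, 33.3% in complex II, 50% in complex III, 35.7% in complex IV and 58.8% in complex V. In Hep3B it was 15.6% in complex I, under the 17.5% of named rows above background, and 33.3%, 37.5%, 28.6% and 35.3% in complexes II to V. The share of complex II rests on 1 gene of 3 in each line. In these bulk RNA samples, fewer cells expressing a gene and less of its RNA per cell cannot be told apart.

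The median subunit was below the control level on each siRNA array, while single subunits varied in direction. The median subunit, taken as an array minus the mean of its line's control arrays, stood at -0.34, -0.24 and -0.29 on the Huh7 siRNA arrays (SD 0.05) and at -0.15, -0.26 and -0.25 on the Hep3B siRNA arrays (SD 0.06). The 6 control arrays lay between -0.02 and 0.04. All 3 siRNA arrays lay below all 3 control arrays for 50 subunits in Huh7 and 41 in Hep3B. They lay above for 0 and 4, and overlapped for 24 and 29. Over all tested rows, 11.4% lay wholly below and 11.5% wholly above in Huh7, and 13.6% and 13.3% in Hep3B. These shares were not counted for named rows above background. When the siRNA effects of both lines were averaged, 45 subunits were lower and none higher. That average effect was called for 14.4% of all rows (6.68% lower, 7.73% higher). Among named rows above background it was called lower for 24.9% and higher for 25.2%.

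**Figure D1:**
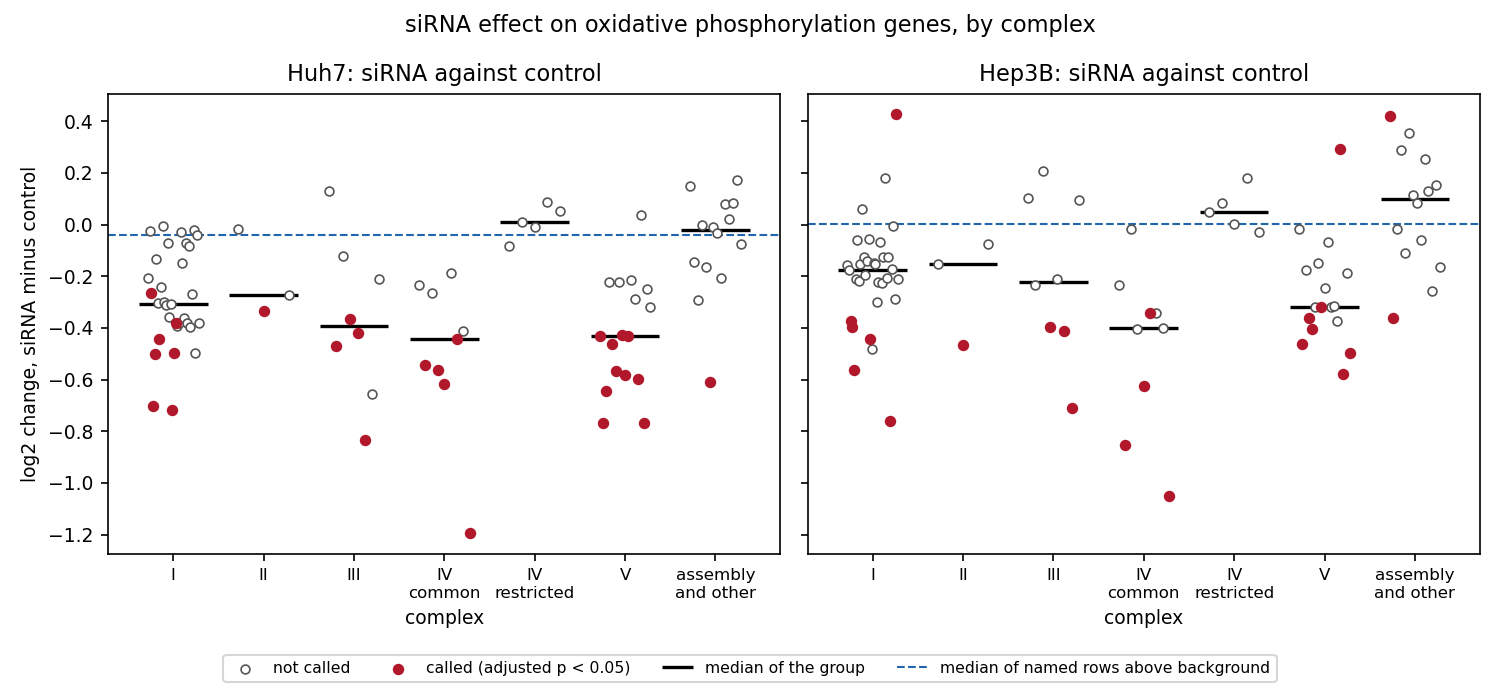
Log2 change (siRNA minus control, vertical axis) of the 88 genes by complex in Huh7 (left) and Hep3B (right). Each point is a gene, filled red where called, black bars are medians and the dashed line is the median of named rows above background. The medians of complexes I, II, III and V and of the common complex IV subunits lie below the dashed line in both panels, while the restricted complex IV isoforms lie near it.

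The number of calls depended on the scaling, on the fit and on single arrays. With arrays centred on their medians in place of quantile normalization, 10 of the 88 genes were called in Huh7, against 28, and 14 in Hep3B, against 23. The calls over all rows then split 70.1% higher in Huh7 (56.7% with quantile normalization) and 65.9% higher in Hep3B (54.7%). On the values as deposited, 18 genes were called in Huh7, where 65.0% of all calls were higher. With only the 6 arrays of a line in the fit, 7 genes were called in Huh7 and 24 in Hep3B. With the replicate number added to the fit as a block, 14 were called in Huh7 and 13 in Hep3B. In Huh7, 12 genes were called without siRNA array 1, 16 without control array 2 and 12 without control array 3. In Hep3B, 14 were called without siRNA array 2 and 13 without control array 2. Each of the 28 Huh7 and 23 Hep3B calls kept its sign under every alternative run, but only 6 and 9 were called under all of them. Those were NDUFA12, UQCRC2, COX6B1, ATP5F1B, ATP5ME and ATP5PD in Huh7, and NDUFS5, NDUFA2, UQCRB, UQCRC2, COX5A, COX6B1, ATP5PD, ATP5PO and ATP5IF1 in Hep3B. These genes are singled out after their values were seen, and UQCRB lay within background.

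Complex I is the largest of the complexes, with an arm in the matrix that takes electrons from NADH and an arm in the membrane that pumps protons. In Huh7, 7 of its 32 measured subunits fell (21.9%, against 16.4% of named rows above background), with a median log2 change of -0.31, and all 32 values were negative. In Hep3B, 5 fell and 1 rose, with a median of -0.17 and 29 negative values. The share that fell there, 15.6%, was no larger than among named rows above background (17.5%). In the average of both lines 17 of 32 were lower and none higher. NDUFA11, NDUFA12 and NDUFA2 fell in both lines. The core subunit NDUFS1 was not called in either line, with log2 changes of -0.07 ± 0.08 (SE) in Huh7 and 0.18 ± 0.08 in Hep3B. NDUFS7, another core subunit, lay within the range of the background rows in all 4 groups, and nothing is read from its change.

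NDUFA12 stood at 10.17, 10.06 and 10.11 in Huh7 siRNA arrays, against 10.83, 10.82 and 10.80 in Huh7 control arrays, a log2 change of -0.70 ± 0.09 (SE), adjusted p = 0.000579. In Hep3B the same gene stood at 9.35, 9.27 and 9.0 in siRNA arrays, against 9.59, 9.66 and 9.56 in control arrays, with a log2 change of -0.40 ± 0.09 (SE), adjusted p = 0.0143. NDUFA12 is an accessory subunit of the matrix arm, and its siRNA arrays lay below all control arrays in both lines. The Hep3B call was lost without control array 2 (adjusted p = 0.0646). NDUFA2 stood at 5.90, 5.87 and 5.60 in Huh7 siRNA arrays, against 6.16, 6.38 and 6.34 in Huh7 control arrays (-0.50 ± 0.12, adjusted p = 0.0206). In Hep3B, NDUFA2 stood at 5.24, 5.49 and 5.11 in siRNA arrays, against 5.93, 5.75 and 5.86 in control arrays (-0.56 ± 0.12, adjusted p = 0.00852). This accessory subunit of the NADH-binding module was lower on every siRNA array, and its Hep3B siRNA level lay within the range of the background rows. NDUFB2 stood at 5.39, 5.37 and 5.85 in Huh7 siRNA arrays, against 6.47, 6.36 and 5.95 in Huh7 control arrays, a log2 change of -0.72 ± 0.17 (SE), adjusted p = 0.0225. NDUFB3 stood at 7.11, 7.33 and 7.38 in Huh7 siRNA arrays, against 8.0, 7.69 and 7.61 in Huh7 control arrays, a log2 change of -0.50 ± 0.12 (SE), adjusted p = 0.0303. NDUFB2 and NDUFB3 belong to the membrane arm, and for both the Huh7 groups did not overlap. In Hep3B their log2 changes were -0.48 ± 0.17 and -0.15 ± 0.12, neither called. In Huh7, the calls of NDUFA2, NDUFB2 and NDUFB3 were lost without control array 2 and, for 1 or more of them, without control array 1 or 3 or siRNA array 1, 2 or 3, with adjusted p between 0.0549 and 0.113.

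NDUFS5 stood at 11.57, 11.65 and 11.64 in Hep3B siRNA arrays, against 12.58, 12.24 and 12.33 in Hep3B control arrays, a log2 change of -0.76 ± 0.12 (SE), adjusted p = 0.00163. This membrane-arm subunit, which faces the intermembrane space, had the largest fall of complex I in Hep3B, and its arrays did not overlap. In Huh7 it stood at 12.03, 12.28 and 12.49 in siRNA arrays, against 12.65, 12.57 and 12.77 in control arrays, and was not called (-0.39 ± 0.12, adjusted p = 0.0735). NDUFB11 stood at 5.18, 5.06 and 5.02 in Hep3B siRNA arrays, against 5.50, 5.51 and 5.58 in Hep3B control arrays, a log2 change of -0.44 ± 0.10 (SE), adjusted p = 0.0183. NDUFB11, of the membrane arm, was at background level on the siRNA arrays. NDUFV2 stood at 7.87, 7.67 and 7.64 in Hep3B siRNA arrays, against 7.27, 7.24 and 7.38 in Hep3B control arrays, a log2 change of 0.43 ± 0.11 (SE), adjusted p = 0.026. NDUFV2, an iron-sulfur subunit of the NADH-binding module, was the complex I subunit that rose, with every Hep3B siRNA array above every control array. In Huh7 it stood at 8.63, 8.49 and 8.86 in siRNA arrays, against 8.83, 8.64 and 8.63 in control arrays, and the groups overlapped. In Hep3B, the calls of NDUFB11 and NDUFV2 were both lost without control array 2 or siRNA array 2, and one of them without control array 1 or 3 or siRNA array 1 or 3 (adjusted p between 0.0526 and 0.0922).

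Complex II, which is also an enzyme of the citric acid cycle, was measured through 3 subunits. SDHC fell in both lines and the other two were not called. SDHC stood at 8.53, 8.63 and 8.59 in Huh7 siRNA arrays, against 8.85, 8.86 and 9.06 in Huh7 control arrays, a log2 change of -0.34 ± 0.08 (SE), adjusted p = 0.0272. SDHC stood at 9.13, 9.26 and 9.08 in Hep3B siRNA arrays, against 9.59, 9.58 and 9.70 in Hep3B control arrays, a log2 change of -0.47 ± 0.08 (SE), adjusted p = 0.00339. SDHC is a membrane anchor that binds heme and ubiquinone, and its siRNA arrays lay below all control arrays in both lines. SDHD, the other anchor, stood at 7.53, 7.43 and 7.75 in Huh7 siRNA arrays, against 7.90, 7.82 and 7.81 in Huh7 control arrays (-0.27 ± 0.09). In Hep3B it stood at 7.60, 7.47 and 7.52 in siRNA arrays, against 7.67, 7.64 and 7.51 in control arrays (-0.08 ± 0.09). The Huh7 groups of SDHD did not overlap and the Hep3B groups did. SDHA, the flavoprotein, stood at 7.22, 7.27 and 7.52 in Huh7 siRNA arrays, against 7.34, 7.30 and 7.42 in Huh7 control arrays (-0.02 ± 0.08). In Hep3B, SDHA stood at 7.30, 7.24 and 7.31 in siRNA arrays, against 7.45, 7.42 and 7.43 in control arrays (-0.15 ± 0.08). The 3 Hep3B siRNA arrays of SDHA lay below the control arrays, with no call, and in Huh7 its sign was not stable to the scaling, with 0.06 on the values as deposited and 0.08 with median centring. The SDHC call in Huh7 was lost without control array 3, siRNA array 1 or siRNA array 3 (adjusted p between 0.0559 and 0.0949). With median centring the SDHC call was lost in both lines (0.279 in Huh7 and 0.0964 in Hep3B). In Huh7 it was also lost on the values as deposited and with cyclic loess. The same held with only the 6 Huh7 arrays in the fit and with the replicate number as a block.

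In complex III, 4 of 8 subunits fell in Huh7 (median -0.39) and 3 of 8 in Hep3B (median -0.22), and none rose. UQCRB and UQCRC2 fell in both lines, and UQCRB lay within the range of the background rows in all 4 groups. UQCRC2 stood at 11.04, 11.06 and 11.13 in Huh7 siRNA arrays, against 11.88, 11.79 and 12.07 in Huh7 control arrays, a log2 change of -0.83 ± 0.08 (SE), adjusted p = 6.69e-05. UQCRC2 stood at 11.42, 11.49 and 11.48 in Hep3B siRNA arrays, against 11.90, 11.85 and 11.88 in Hep3B control arrays, a log2 change of -0.41 ± 0.08 (SE), adjusted p = 0.00439. UQCRC2 and UQCRC1 are the core proteins on the matrix side, and UQCRC2 was separated on all arrays of both lines. UQCRC1 stood at 8.11, 8.22 and 8.26 in Huh7 siRNA arrays, against 8.69, 8.47 and 8.68 in Huh7 control arrays, a log2 change of -0.42 ± 0.09 (SE), adjusted p = 0.0156. UQCR10 stood at 6.61, 6.99 and 6.67 in Huh7 siRNA arrays, against 7.02, 7.30 and 7.35 in Huh7 control arrays, a log2 change of -0.47 ± 0.12 (SE), adjusted p = 0.0388. UQCR10 is a small subunit whose Huh7 arrays fell just short of overlapping. In Hep3B the changes of UQCRC1 and UQCR10 were -0.21 ± 0.09 and -0.23 ± 0.12, neither called. UQCRHL stood at 5.82, 5.60 and 5.53 in Hep3B siRNA arrays, against 6.12, 6.42 and 6.54 in Hep3B control arrays, a log2 change of -0.71 ± 0.19 (SE), adjusted p = 0.0369. UQCRHL resembles the hinge protein UQCRH, and its groups did not overlap in either line. In Huh7 it was not called (-0.65 ± 0.19, adjusted p = 0.064). CYC1, the heme-carrying cytochrome c1, was not called, with 0.13 ± 0.11 in Huh7 and 0.10 ± 0.11 in Hep3B. Without Huh7 control array 3 or siRNA array 1 the Huh7 calls of UQCRC1 and UQCR10 were both lost, and 1 of them without control array 1 or 2 or siRNA array 3 of Huh7 or without control array 1, 2 or 3 or siRNA array 1 or 2 of Hep3B (adjusted p between 0.0502 and 0.136). The UQCRHL call in Hep3B was lost without siRNA array 2 or 3, control array 2 or 3 of Hep3B or siRNA array 2 of Huh7 (adjusted p between 0.0521 and 0.13).

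In complex IV the broadly expressed subunits and the tissue-restricted isoforms were counted apart. Of its 9 broadly expressed subunits, 5 fell in Huh7 (median -0.44) and 4 in Hep3B (median -0.40), all 9 values were negative in each line, and 8 of 9 were lower in the average of both lines. The other 5 genes, COX4I2, COX6A2, COX7A1, COX7B2 and COX8C, are isoforms known mainly from lung, muscle or testis, and none had a group mean above background. Their medians were 0.01 in Huh7 and 0.05 in Hep3B and none was called. COX5A, COX6B1 and COX8A fell in both lines.

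COX8A stood at 11.52, 12.14 and 10.75 in Huh7 siRNA arrays, against 12.50, 12.58 and 12.91 in Huh7 control arrays, a log2 change of -1.19 ± 0.26 (SE), adjusted p = 0.0172. In Hep3B, COX8A stood at 12.16, 12.03 and 12.24 in siRNA arrays, against 13.12, 13.28 and 13.18 in control arrays, with a log2 change of -1.05 ± 0.26 (SE), adjusted p = 0.0269. COX8A had the largest fall of all 88 genes in each line, and the widest spread among its Huh7 siRNA arrays. COX5A stood at 9.55, 9.90 and 9.55 in Huh7 siRNA arrays, against 10.22, 10.16 and 10.27 in Huh7 control arrays, a log2 change of -0.54 ± 0.12 (SE), adjusted p = 0.0201. In Hep3B, COX5A stood at 10.04, 9.78 and 9.58 in siRNA arrays, against 10.72, 10.64 and 10.60 in control arrays, with a log2 change of -0.85 ± 0.12 (SE), adjusted p = 0.00104. COX5A, on the matrix side, was separated in both lines. COX6B1 stood at 8.60, 8.71 and 8.53 in Huh7 siRNA arrays, against 9.23, 9.27 and 9.20 in Huh7 control arrays, a log2 change of -0.62 ± 0.11 (SE), adjusted p = 0.00516. In Hep3B, COX6B1 stood at 8.31, 8.07 and 7.82 in siRNA arrays, against 8.70, 8.60 and 8.76 in control arrays, with a log2 change of -0.62 ± 0.11 (SE), adjusted p = 0.00382. COX6B1 faces the intermembrane space and changed by nearly the same amount in the 2 lines. COX6A1 stood at 11.06, 11.37 and 11.23 in Huh7 siRNA arrays, against 11.44, 11.86 and 12.06 in Huh7 control arrays, a log2 change of -0.56 ± 0.15 (SE), adjusted p = 0.0384. The Huh7 arrays of this membrane subunit did not overlap, and in Hep3B it was not called (-0.41 ± 0.15). The COX8A call in Hep3B was lost without any 1 of the 6 Hep3B arrays (adjusted p between 0.0626 and 0.0911), and in Huh7 without control array 3 (0.0707). In Huh7, the calls of COX5A and COX6A1 were both lost without control array 3 or siRNA array 1 or 3, and 1 of them without control array 1 or 2 of Huh7 or without siRNA array 2 or control array 1, 2 or 3 of Hep3B (adjusted p between 0.0523 and 0.132).

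**Figure D2:**
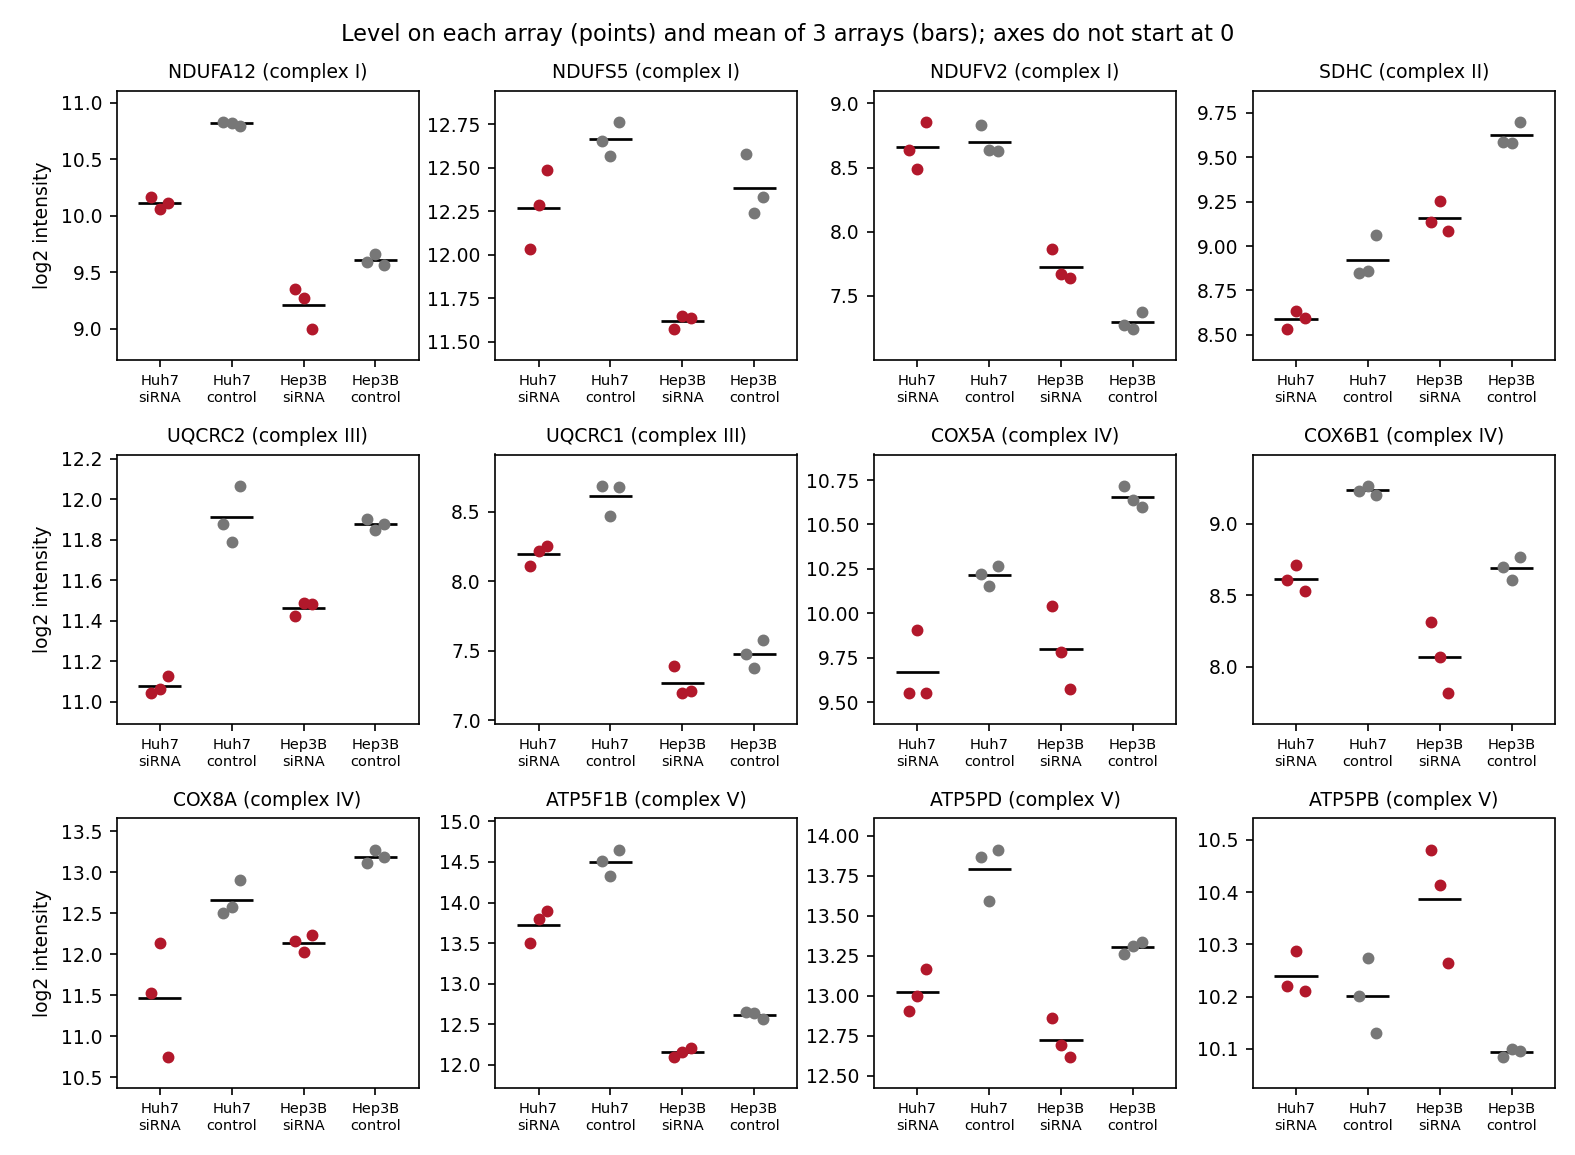
Log2 intensity (vertical axes, not starting at 0) of 12 subunits on each array in Huh7 siRNA, Huh7 control, Hep3B siRNA and Hep3B control arrays. Points are arrays and bars are means of 3. Red siRNA points lie below the grey control points of their line in both lines for NDUFA12, NDUFS5, SDHC, UQCRC2, COX5A, COX6B1, COX8A, ATP5F1B and ATP5PD. UQCRC1 is separated in Huh7 and overlaps in Hep3B, while NDUFV2 and ATP5PB are higher in siRNA than in control arrays of Hep3B.

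Complex V had the highest share of falling subunits in Huh7 among complexes with more than 3 genes. In Huh7, 10 of its 17 subunits fell and none rose, with a median log2 change of -0.43. In Hep3B 6 of 17 fell and 1 rose, with a median of -0.32. The lead over complex IV in Huh7 rested on the restricted isoforms of complex IV. Its 9 broadly expressed subunits had 55.6% falling in Huh7 (median -0.44), and 5 of the 7 above background fell. In the average of both lines 14 of 17 complex V subunits were lower. The falls of complex V ran through its parts, from the catalytic head (ATP5F1B in both lines, ATP5F1A in Huh7) to the central stalk (ATP5F1E in both lines, ATP5F1C in Huh7, ATP5F1D in Hep3B), the ring (ATP5MC3 in both lines, ATP5MC1 in Huh7), the peripheral stalk (ATP5PD in both lines, ATP5PO in Hep3B) and the small membrane subunits (ATP5ME, ATP5MF and ATP5MJ in Huh7). ATP5PB went the other way in Hep3B, and ATP5MC2, ATP5MG, ATP5MGL and ATP5PF were called in neither line. Of 22 alternatives, the call of ATP5F1D in Hep3B was kept in 9. In Huh7 that of ATP5MF was kept in 8, of ATP5MC1 in 13 and of ATP5ME in all 22. Differences between complexes were not tested.

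ATP5F1B stood at 13.50, 13.79 and 13.89 in Huh7 siRNA arrays, against 14.52, 14.33 and 14.65 in Huh7 control arrays, a log2 change of -0.77 ± 0.11 (SE), adjusted p = 0.00109. ATP5F1B stood at 12.10, 12.16 and 12.21 in Hep3B siRNA arrays, against 12.65, 12.64 and 12.57 in Hep3B control arrays, a log2 change of -0.46 ± 0.11 (SE), adjusted p = 0.0172. ATP5F1B is the catalytic beta subunit, and its groups did not overlap in either line. ATP5F1C stood at 13.23, 13.29 and 12.52 in Huh7 siRNA arrays, against 13.60, 13.71 and 13.67 in Huh7 control arrays, a log2 change of -0.65 ± 0.16 (SE), adjusted p = 0.0295. ATP5F1C, the gamma subunit of the rotor, was lowest on Huh7 siRNA array 3, without which its change was -0.40 (adjusted p = 0.00289), and in Hep3B it was not called (-0.18 ± 0.16). ATP5F1E stood at 6.54, 6.44 and 6.14 in Hep3B siRNA arrays, against 6.79, 6.74 and 6.81 in Hep3B control arrays, a log2 change of -0.40 ± 0.11 (SE), adjusted p = 0.0486. ATP5F1E is the epsilon subunit, and it also fell in Huh7 (-0.46 ± 0.11, adjusted p = 0.0305). ATP5PD stood at 12.90, 13.0 and 13.17 in Huh7 siRNA arrays, against 13.87, 13.59 and 13.91 in Huh7 control arrays, a log2 change of -0.77 ± 0.10 (SE), adjusted p = 0.000833. ATP5PD stood at 12.86, 12.69 and 12.62 in Hep3B siRNA arrays, against 13.26, 13.31 and 13.33 in Hep3B control arrays, a log2 change of -0.58 ± 0.10 (SE), adjusted p = 0.00363. ATP5PD is subunit d of the peripheral stalk, which holds the head still, and all its siRNA arrays lay below the control arrays. ATP5PO stood at 6.20, 5.96 and 5.80 in Hep3B siRNA arrays, against 6.38, 6.53 and 6.55 in Hep3B control arrays, a log2 change of -0.50 ± 0.10 (SE), adjusted p = 0.00736. ATP5PO links the stalk to the head, and in Huh7 it was not called (-0.32 ± 0.10, adjusted p = 0.0827).

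ATP5MJ stood at 7.17, 7.52 and 7.30 in Huh7 siRNA arrays, against 7.94, 7.86 and 7.99 in Huh7 control arrays, a log2 change of -0.60 ± 0.13 (SE), adjusted p = 0.0188. This small membrane subunit was not called in Hep3B (-0.37 ± 0.13). ATP5PB stood at 10.48, 10.41 and 10.26 in Hep3B siRNA arrays, against 10.08, 10.10 and 10.10 in Hep3B control arrays, a log2 change of 0.29 ± 0.07 (SE), adjusted p = 0.025. ATP5PB, subunit b of the peripheral stalk, was thus higher on every Hep3B siRNA array, while its partner ATP5PD was lower. In Huh7, ATP5PB stood at 10.22, 10.29 and 10.21 in siRNA arrays, against 10.20, 10.27 and 10.13 in control arrays, and the groups overlapped. In Hep3B, the calls of ATP5F1B, ATP5F1E and ATP5PB were all lost without control array 1, control array 2 or siRNA array 2, and 1 or more of them without siRNA array 1 or 3 or control array 3 of Hep3B or without siRNA array 1 or 2 or control array 1 of Huh7 (adjusted p between 0.0523 and 0.167). In Huh7, the calls of ATP5F1C and ATP5MJ were both lost without control array 1 or 3, and 1 of them without control array 2 or siRNA array 1 or 3 (adjusted p between 0.0546 and 0.0906).

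Few of the 14 assembly factors and other genes were called. In Huh7 1 of them fell and none rose (median -0.02), and in Hep3B 1 fell and 1 rose (median 0.10). ATP5IF1 stood at 7.72, 7.92 and 7.74 in Hep3B siRNA arrays, against 7.45, 7.31 and 7.36 in Hep3B control arrays, a log2 change of 0.42 ± 0.09 (SE), adjusted p = 0.0099. ATP5IF1 inhibits ATP hydrolysis by complex V, and its Hep3B siRNA arrays lay above all control arrays. In Huh7 it stood at 8.68, 8.77 and 8.52 in siRNA arrays, against 8.59, 8.45 and 8.48 in control arrays, and was not called. COX7A2L stood at 6.87, 6.91 and 7.02 in Hep3B siRNA arrays, against 7.26, 7.39 and 7.23 in Hep3B control arrays, a log2 change of -0.36 ± 0.08 (SE), adjusted p = 0.0102. COX7A2L helps to join complexes III and IV into supercomplexes, and its call was lost without Hep3B control array 2 (adjusted p = 0.0518). NDUFAF4 stood at 5.56, 5.92 and 5.50 in Huh7 siRNA arrays, against 6.32, 6.15 and 6.33 in Huh7 control arrays, a log2 change of -0.61 ± 0.13 (SE), adjusted p = 0.0167. NDUFAF4, whose Huh7 siRNA arrays 1 and 3 lay near the background limit, is an assembly factor of complex I. In Hep3B it stood at 6.24, 6.27 and 6.58 in siRNA arrays, against 6.18, 5.87 and 5.98 in control arrays, and was not called (0.36 ± 0.13). Its Huh7 call was lost without siRNA array 1 or 3 or control array 1 or 3 (adjusted p between 0.0588 and 0.0652).

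The siRNA effects of the 2 lines were then set against each other. The 13 subunits that fell in both were NDUFA11, NDUFA12, NDUFA2, SDHC, UQCRB, UQCRC2, COX5A, COX6B1, COX8A, ATP5F1B, ATP5F1E, ATP5MC3 and ATP5PD. The fall was called in Huh7 and not in Hep3B for 14 further subunits, and in Hep3B and not in Huh7 for 6. The shares of all tested rows with such calls were not counted, so no excess is read from these numbers. The difference of the effects, Huh7 minus Hep3B, was negative for 50 of 74 subunits and positive for 24, with a median of -0.10. Among named rows above background 56.6% were negative, with a median of -0.05. None of the 74 was called in limma's test of this difference, where the lowest adjusted p was 0.0837, for UQCRC2 (-0.42 ± 0.11). At an unadjusted p under 0.05 there were 8 subunits (10.8%), against 12.5% of all tested rows. Of the 88 genes, NDUFAF4 alone was called, with a difference of -0.96 ± 0.19 (SE), adjusted p = 0.0285, against 1.87% of all tested rows (0.927% lower, 0.945% higher) and 6.95% of named rows above background. That call was lost without siRNA array 1 or 3 or control array 1 or 3 of Huh7, or siRNA array 2 or 3 or control array 2 or 3 of Hep3B (adjusted p between 0.0534 and 0.0817).

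**Figure D3:**
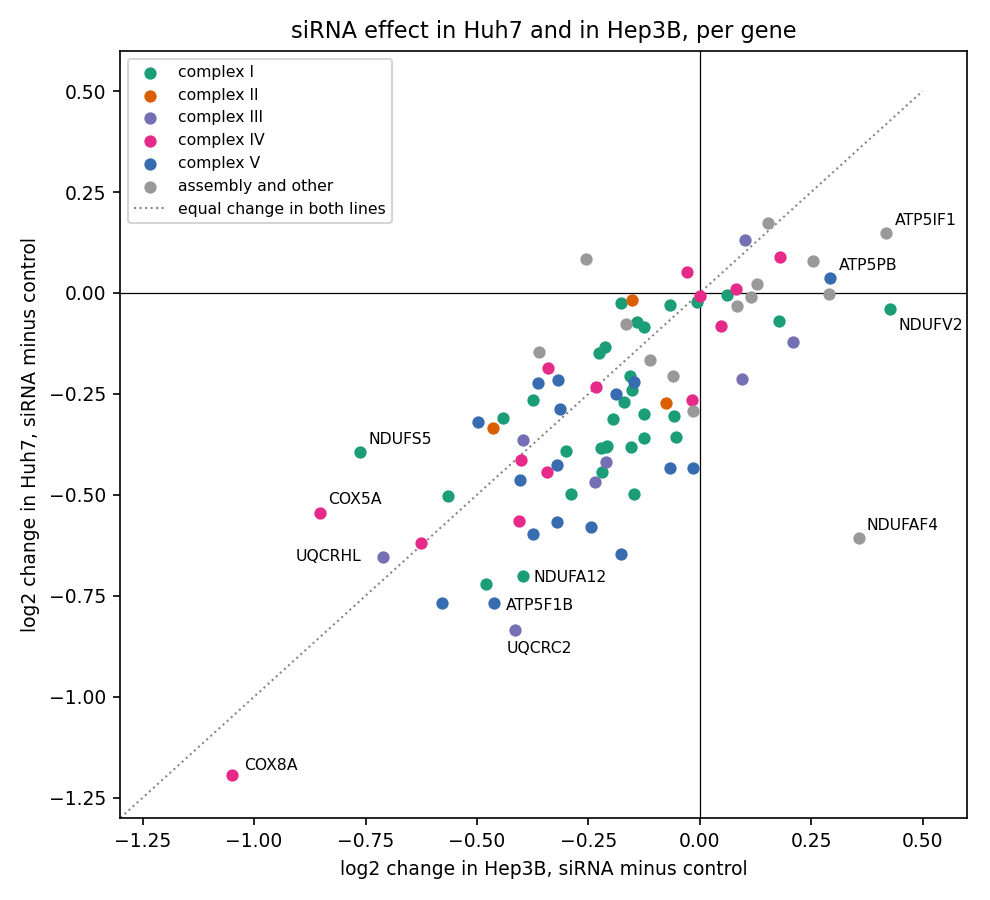
Log2 change of each of the 88 genes in Huh7 (vertical axis) and in Hep3B (horizontal axis), siRNA minus control, coloured by complex. The dotted line marks equal change. Of the 74 subunits, 62 have negative values in both lines, and NDUFAF4 lies far below the line, at -0.61 in Huh7 and 0.36 in Hep3B. Among named rows above background, 55.0% were negative in Huh7 and 49.7% in Hep3B. The share negative in both lines was not counted for those rows.

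More subunits were called between the control arrays of the 2 lines than in either siRNA comparison. In Huh7 control against Hep3B control arrays, 31 of 74 subunits were higher, 9 were lower and 34 were not called, with a median log2 difference of 0.24. Over all rows 20.9% were called (11.0% higher, 9.9% lower), and among named rows above background 35.9% were higher and 29.5% lower, with a median of 0.05. The rates were 14 of 32 higher in complex I, 0 of 3 in complex II, 3 of 8 in complex III, 6 of 14 in complex IV and 8 of 17 in complex V. ATP5F1B stood 1.88 ± 0.11 (SE) higher in Huh7, at 14.52, 14.33 and 14.65 in Huh7 control arrays, against 12.65, 12.64 and 12.57 in Hep3B control arrays. The complex I assembly factor NDUFAF2 stood at 8.18, 8.42 and 7.88 in Huh7 control arrays, against 6.56, 6.54 and 6.17 in Hep3B control arrays (1.74 ± 0.15). Both genes were separated by more than the whole spread of either group, as was NDUFV2 (1.40 ± 0.11). In the other direction, NDUFA10, of the membrane arm of complex I, stood at 4.72, 4.81 and 4.85 in Huh7 control arrays, against 5.89, 5.92 and 5.94 in Hep3B control arrays (-1.13 ± 0.07). SDHC and NDUFS3, a core subunit of complex I, were also lower in Huh7, with log2 differences of -0.70 ± 0.08 and -0.64 ± 0.11. Adjusted p ran between 1.66e-07 and 0.00107 over these 6 genes. NDUFA10 in Huh7 lay within the range of the background rows.

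Lists of other genes of mitochondrial respiration were counted in the same way, to be read against the shares of named rows above background (16.4% lower and 15.3% higher in Huh7, 17.5% lower and 20.6% higher in Hep3B). Of 18 genes of the citric acid cycle and pyruvate entry, 9 fell (50%) and 1 rose in Huh7 (median -0.26), and 5 fell (27.8%) and 1 rose in Hep3B (median -0.21). IDH2, a mitochondrial isocitrate dehydrogenase, averaged 8.63 in Huh7 siRNA and 9.46 in Huh7 control arrays (-0.83 ± 0.09), and 8.10 in Hep3B siRNA and 9.27 in Hep3B control arrays (-1.17 ± 0.09). MPC1, a subunit of the pyruvate carrier, fell by 0.66 in Huh7 and by 0.73 in Hep3B. DLAT, a pyruvate dehydrogenase subunit, fell in Hep3B (-0.68 ± 0.09, adjusted p = 0.000431) and had 0.10 in Huh7, and the difference between the lines was called (0.78, adjusted p = 0.0103). Of 17 mobile carrier and nucleotide exchange genes, 6 fell in Huh7 (35.3%, median -0.15), and 4 fell (23.5%) and 1 rose in Hep3B (median -0.02). The adenine nucleotide carrier SLC25A4 changed by -0.76 in Huh7 and -0.55 in Hep3B, and the outer membrane channel VDAC3 by -0.77 and -0.56. SLC25A4 lay within background in Hep3B siRNA arrays.

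The assembly factor lists of complexes I to IV had medians between -0.03 and 0.13. The shares of these lists that fell were near or under those of named rows above background. Of 18 complex I factors, 3 fell in Huh7 (16.7%, median -0.01) and 2 in Hep3B (11.1%, median 0.09), and TIMMDC1 fell in both lines, by 0.45 in Huh7 and by 0.61 in Hep3B. Of 13 factors of complexes II and III, none was called in Huh7 (median 0.05) and 2, UQCC3 and UQCC6, rose in Hep3B (15.4%, median 0.13), both with group means within background. Of 23 complex IV factors, 1 fell and 1 rose in Huh7 (4.35% each, median -0.03), and 2 fell (8.7%) and 5 rose (21.7%) in Hep3B (median 0.10). COX15, which makes heme A, rose by 0.48 in Huh7 and 0.78 in Hep3B. A list of 7 measured genes set beside ATP synthase included DMAC2 and DMAC2L, whose older symbols were ATP5SL and ATP5S. Of these 7, 4 including DMAC2 fell in Huh7 (57.1%, median -0.34). In Hep3B 1, DMAC2, fell and 1 rose (14.3% each, median -0.12). DMAC2 is an assembly factor of complex I that was left out of the complex I list. It changed by -0.65 in Huh7 and -1.33 in Hep3B, larger falls than any in that list. Of 18 regulators of mitochondrial gene transcription, 4 rose (22.2%) and 2 fell (11.1%) in Huh7 (median 0.12), and 10 rose (55.6%) and 1 fell (5.56%) in Hep3B (median 0.31). MYC averaged 7.35 in Huh7 siRNA and 6.41 in Huh7 control arrays (0.95 ± 0.15, adjusted p = 0.00251), and 9.51 in Hep3B siRNA and 7.77 in Hep3B control arrays (1.74 ± 0.15, adjusted p = 3.24e-05). PPRC1, a coactivator of NRF1, rose by 0.64 in Huh7 and 1.02 in Hep3B. YY1 was called higher in both lines, by 0.50 in Huh7 and 0.67 in Hep3B. NRF1 itself was not among the 18 genes measured. GABPB1, a subunit of the ETS factor GABP, rose by 0.83 in Hep3B and had 0.22 in Huh7, with a called difference (-0.61, adjusted p = 0.0445). HIF1A, the oxygen-regulated factor, fell by 0.36 in Huh7 and rose by 0.35 in Hep3B, again with a called difference (-0.71, adjusted p = 0.0047). Some of these lists share genes with each other and with the 88.

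**Figure D4:**
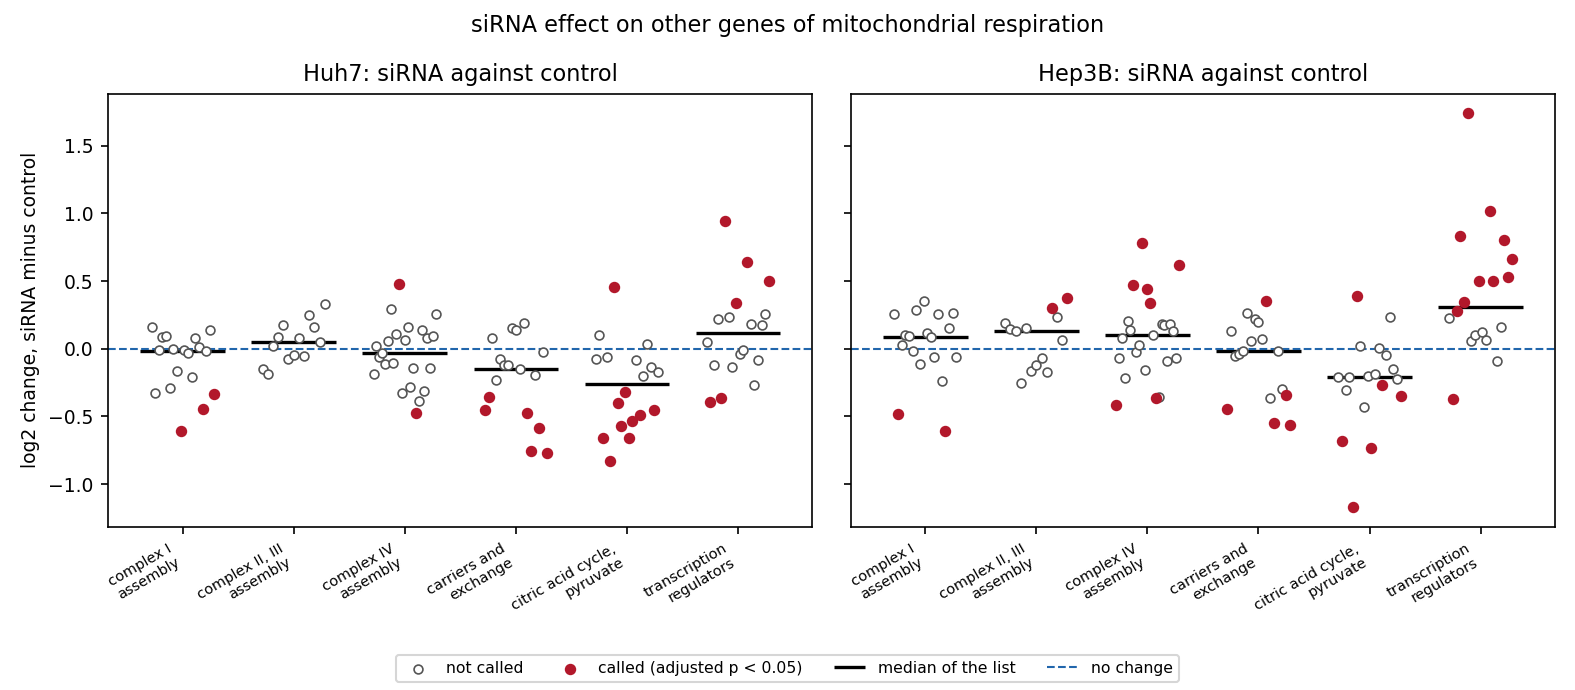
Log2 change (siRNA minus control, vertical axis) of the genes in 6 other lists in Huh7 (left) and Hep3B (right). Points are genes, filled red where called, and black bars are list medians. The list of 7 genes set beside ATP synthase is left out. Of the 6 lists drawn, the citric acid cycle list has the lowest median in both panels (-0.26 in Huh7 and -0.21 in Hep3B). The transcription regulators have the highest (0.12 in Huh7 and 0.31 in Hep3B).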

How the data were processed

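Total RNA of 12 samples in 4 groups of 3 was hybridised to an array apiece. The authors deposited a table of log2 values. The submitters' processing notes name Agilent Feature Extraction 10.7.1.1, but per the labels Affymetrix labelling was used with Cy3, and the row names are transcript cluster names of Affymetrix type. Summarisation and normalization are not given in the sources used here. Array medians ran between 3.8191 and 3.9426. The deposited log2 values were quantile-normalized here, because the medians spread by 0.1235, over the limit of 0.1 set for this step. A group-means model over all 12 arrays (8 residual degrees of freedom) was fitted with limma 3.58.1 in R 4.3.3, with a trend in the spread and Benjamini-Hochberg adjustment over 66212 rows, and tested on simulated data. Tables and plots were made with Python 3.11.15 and matplotlib 3.10.9. Gene symbols came from the platform annotation. Background was the highest mean of 23 background control rows on the deposited values, against which quantile-normalized group means were set. Precision is limited by having 3 arrays in a group.

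Members and gene lists were chosen with earlier results of these data known. Named genes are, per line and complex, up to 4 called genes with the largest changes, non-overlapping groups and 1 group mean above background, every gene called higher or in the difference between the lines, all measured complex II subunits, the 3 largest differences each way between the lines, and up to 3 called genes of each other list per line. Names outside this rule complete counts and were chosen with their values seen. Some genes of the other lists that met the rule are given only in the counts. The settings varied were normalization (none, median centring or cyclic loess), other row filters, the mean of several rows, no trend, array weights, only the 6 arrays compared, the replicate number as a block, and each array left out.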

Additional observations from a re-analysis of the deposited data

Results flagged for a closer look

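NDUFAF4, a complex I assembly factor, had siRNA effects that differed between the lines by the test of the difference itself. Its log2 change in Huh7 minus that in Hep3B was -0.96 ± 0.19 (SE), adjusted p = 0.0285 in limma's test. It was the only gene of the 88 called (1.14%), against 1.87% of all tested rows and 6.95% of named rows above background. Huh7 siRNA arrays 1 and 3, at 5.56 and 5.50, lay near the background limit of 5.50. All 3 Huh7 siRNA arrays lay below the Huh7 control arrays, and all 3 Hep3B siRNA arrays lay above the Hep3B control arrays. Over 21 alternatives the difference ran between -1.09 and -0.86 and adjusted p between 0.00899 and 0.125, and the call was lost in 9. Groups of 3 arrays are too small for a check of single outlying arrays.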

How the results depend on the processing

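Calls among the 88 genes numbered 28 in Huh7. They numbered 18 on the values as deposited, 10 with median centring, 45 when only rows above background were tested, 7 with only the 6 Huh7 arrays in the fit, and 12 to 29 with 1 array left out. In Hep3B the number was 23, against 14 with median centring and 13 to 23 with 1 array left out. The average effect called 47, against 30 with median centring and 36 to 48 with 1 array left out. The difference between the lines called 1, against 2 with only rows above background, and 0 to 1 with 1 array left out. Huh7 control against Hep3B control called 48, and 36 to 51 with 1 array left out. The median change of the 88 genes was -0.28 in Huh7, against -0.21 as deposited, -0.19 with median centring and -0.31 to -0.25 with 1 array left out. In Hep3B it was -0.18, against -0.11 with median centring and -0.20 to -0.16 with 1 array left out. With the replicate number as a block, 14 genes were called in Huh7, 13 in Hep3B and 0 in the difference. Same-numbered siRNA and control arrays deviated with correlations between -0.1024 and 0.0725, and other pairs with correlations between -0.1104 and 0.1455. These values give no sign of pairing. They cannot exclude it, because they run over all 66212 rows, of which 14629 averaged above background. Which of the 2 fits suits the design better was not tested. SDHA in Huh7 changed sign on the deposited values (0.0617), with median centring (0.0843), with cyclic loess (0.0085) and without siRNA array 1 (0.0398), siRNA array 2 (0.0156) or control array 3 (0.0150). SDHD in Hep3B changed sign with median centring (0.0037). The causes were not tested. With only rows above background fewer rows share the adjustment. Keeping every row, averaging the rows of a gene, the fit with no trend and array weights kept every one of these counts within 1.5 times. Signal over background limits 16 of the 88 genes, which never rose above the background rows.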
